A study of Brassica rapa with 12 samples.

Results

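The subject here is the line by light interaction, or how far the light responses of 2 lines of *Brassica rapa* differ, in 20710 genes. Each had a mean of at least 1 CPM, or count per 1e6 counts of its library, in all 4 groups of seedlings. They are 20710 of the 42186 features in the tables and of the 41018 whose ID starts with Bra, and all 20710 passed the filter on low counts. The 4 groups, of 3 libraries each, were LP08 in light, LP08 in the dark, Chiifu in light and Chiifu in the dark. All plants were 1 week old and taken whole. The daily cycle was 16 h light and 8 h dark for light plants, whereas dark plants spent all 24 h without light. Chiifu is the Chinese cabbage line from which the reference genome of the species was made, and LP08 is the line it was set against in a study of glucosinolates, the sulfur-containing defence compounds of the cabbage family. The labels give no mutation, transgene or chemical treatment, and do not say how long the plants had been in the dark or whether plants were pooled. The quantity described is an interaction: the log2 fold change from light over dark in LP08, minus the same fold change in Chiifu. An interaction above 0 is called higher, and means that light raised the gene more, or lowered it less, in LP08 than in Chiifu. An interaction below 0 is called lower.

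Light is the main signal by which a seedling chooses between 2 programmes of growth. In the dark, a seedling elongates, keeps its leaves folded and lives on its seed reserves. Phytochromes and cryptochromes, the receptors for red and blue light, end this programme: factors that promote elongation are broken down, factors that promote greening accumulate, and the genes of the photosynthetic apparatus are transcribed. A difference between genotypes in this switch can appear in a transcriptome as a line by light interaction, but the source of an interaction is not shown by the interaction itself. It can take the form of a stronger response, a response in 1 line alone or responses in opposite directions. It depends on the scale, since equal folds from unequal starting levels are no interaction on a log scale but are one in CPM. The tables hold IDs without names, and the RefSeq genes of CAAS_Brap_v3.01 hold 1 of these IDs, so genes are given by ID and without function.

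Library totals ranged from 48773088 to 71764062 counts. The mean correlation of a library with its own group, over log2 CPM of the 20710 genes, ranged from 0.944 in Chiifu dark replicate 3 to 0.989, and was 0.954 in LP08 light replicate 3. Chiifu dark replicate 3 also had the highest share of counts in features with an ENSRNA ID, at 2.90%, against 0.557% to 1.79% in the other libraries. Without Chiifu dark replicate 3 and LP08 light replicate 3 together, a check added after seeing the data, 7117 of the 20710 genes were called, against 6452 with all libraries. Left out singly they acted in opposite ways, with 7863 genes called without Chiifu dark replicate 3 and 5144 without LP08 light replicate 3. Whole seedlings were used, so fewer cells of a type and less RNA per cell cannot be told apart in any value below.

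The light responses of the lines differed for 6452 of the 20710 genes, or 31.2% (edgeR quasi-likelihood test, adjusted p under 0.05 over all 31239 features tested). Of all 31239 features, 29.2% were called, so the share among these genes was near the background. The interaction was higher for 3516 genes, or 17.0%, beside 14.8% of all features, and lower for 2936 genes, or 14.2%, beside 14.4%. Called genes had a median interaction of 1.07 in size on the log2 scale, and genes that were not called one of 0.303. The median standard error was 0.248, and 5% of called genes had an interaction under 0.545 in size.

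Requiring reads in all 4 groups removed many of the extreme values. Of the 9121 features called in the whole table, 2669 were outside the 20710 genes, 14 of them ENSRNA features. The lowest group of 973 of the 2669 was under 0.1 CPM, and that of 423 had at most 3 counts over its 3 libraries. Called features outside the 20710 genes had a median interaction of 2.69 in size, against 1.07 for called genes inside. Genes just inside the threshold had a lowest group mean of 1.0003 and 1.0005 CPM, and those just outside it 0.9996 and 0.9987 CPM.

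More genes were called higher than lower, but large interactions were more often lower, as they were over all features tested. At 2-fold or more, there were 1794 higher and 1837 lower genes, which is 8.66% and 8.87%, beside 9.24% and 10.8% of all features. The sizes here are estimates of genes tested against no difference. Tested against a difference of 2-fold itself, 461 genes were higher and 499 lower. At 4-fold or more, 268 genes (1.29%) had a higher and 525 (2.54%) a lower interaction, beside 971 (3.11%) and 1697 (5.43%) of all features. At 16-fold or more there were 11 (0.0531%) and 54 (0.261%), beside 232 (0.743%) and 538 (1.72%). The counts by at least 4-fold and 16-fold were taken after seeing the data. The excess of lower over higher genes at 4-fold and at 16-fold was found in each of 22 other fits, and its size was not tested. The 54 genes became 29 without LP08 dark replicate 2, and 32 without LP08 light replicate 3 or Chiifu light replicate 2. For all called genes the balance turned when libraries were scaled by their totals alone and not by TMM (a trimmed mean of ratios), to 2892 higher and 3231 lower. At 2-fold the counts were close and the balance turned more easily, to 2102 higher and 1641 lower with DESeq2 size factors. It also turned with the DESeq2 test (2161 and 1802) and with no filter on low counts (1780 and 1756), and among genes with at least 1 CPM in every library (1690 and 1607) or a mean of at least 5 CPM in all groups (1008 and 898). The same was seen without LP08 light replicate 1 (1730 and 1726), LP08 dark replicate 1 (2025 and 1856) or 3 (1715 and 1679), Chiifu light replicate 2 (1567 and 1492) or 3 (1596 and 1589), or Chiifu dark replicate 1 (1649 and 1551).

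**Figure D1:**
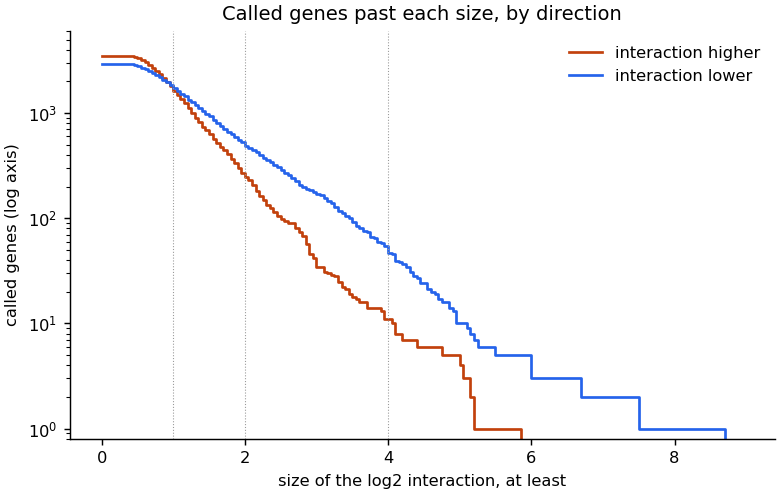
Number of called genes (log axis) whose log2 interaction is at least the size on the horizontal axis, for genes with a higher and with a lower interaction; dotted lines mark 2-fold, 4-fold and 16-fold. The curves cross near 2-fold, and at 4-fold there are 268 higher and 525 lower genes.

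The genes with an interaction that was lower by at least 4-fold were mostly lowest in Chiifu dark or LP08 light. Of these 525 genes, 298 had their lowest mean in Chiifu dark and 211 in LP08 light, and 257 had their highest mean in LP08 dark and 233 in Chiifu light. The 268 genes that were higher by at least 4-fold were mostly lowest in LP08 dark (182 genes) and highest in LP08 light (147 genes) or Chiifu dark (97 genes). The contrast itself favours these groups, so the counts are a description, and they were not taken over all features. By the response in each line, 154 of the 525 lower genes were called for light in Chiifu alone, 135 in LP08 alone and 129 in both lines in opposite directions. Of the 268 higher genes, 92 moved in the same direction with a larger change in LP08, and 69 in opposite directions.

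Shared responses of different strength and responses called in 1 line alone were the main forms, in similar numbers. Light and dark differed for 15142 of the 20710 genes in LP08 (73.1%, beside 68.5% of all features) and for 14522 in Chiifu (70.1%, beside 67.5%). Both lines were called for 11883 genes (57.4%). The share called in both lines was not taken over all features, so it is not read as particular to these genes. Of these 11883, 95% moved in the same direction. Among the 6452 genes with an interaction, 2005 moved in the same direction with a larger change in LP08, and 971 with a larger change in Chiifu. Light was called in LP08 alone for 1631 genes and in Chiifu alone for 1211. Alone means only that the other line did not pass the test, not that it had no response. The shared form thus had 2976 genes and the 1-line form 2842. This order turned without any 1 of the LP08 light or Chiifu light libraries, LP08 dark replicate 1 or 3, or Chiifu dark replicate 1 (as far as 2458 and 2845, without Chiifu light replicate 1). The lines moved in opposite directions in 594 genes, and neither line passed the test in 40 (12 to 26 without any 1 of the LP08 light libraries, LP08 dark replicate 2, Chiifu light replicate 2 or 3, or Chiifu dark replicate 1). These classes use the same libraries as the interaction and were not counted over all features.

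**Figure D2:**
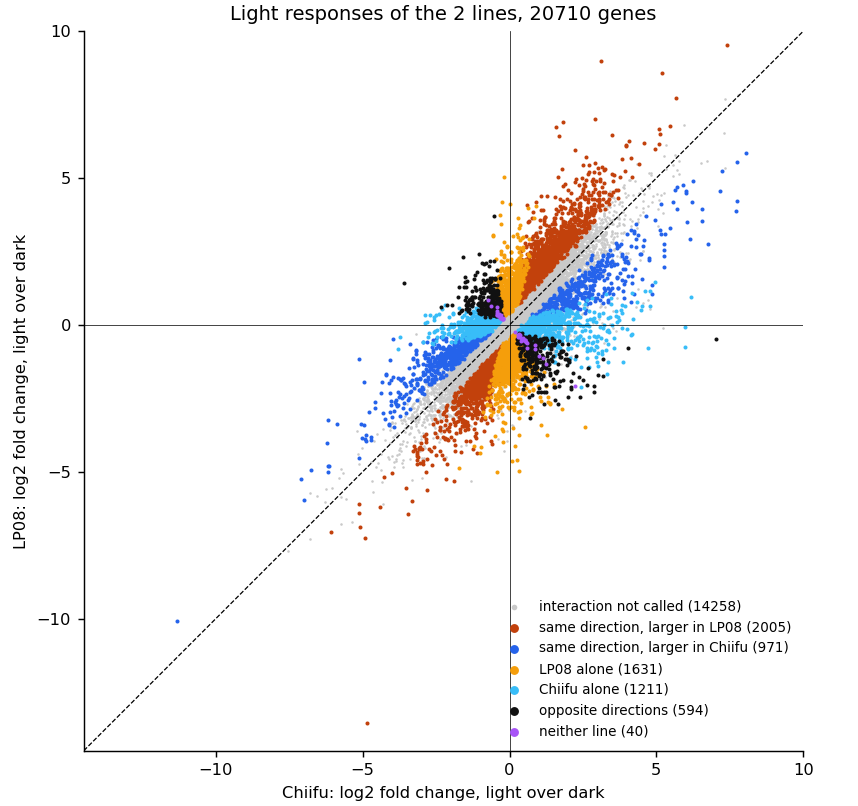
Each point is 1 of 20710 genes, with the log2 fold change of light over dark in LP08 (vertical) and in Chiifu (horizontal), coloured by class for the 6452 genes with an interaction. Grey genes without a call follow the dashed line of equal response, orange-red genes lie beyond it on the LP08 side, and black genes lie in the quadrants of opposite sign.

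The stronger response was more often that of LP08. Where both lines rose, 1211 genes rose more in LP08 and 412 more in Chiifu. Where both fell, 794 fell more in LP08 and 559 more in Chiifu. The 412 genes became 272 without LP08 light replicate 2, and the 559 became 371 without Chiifu light replicate 3. The excess for rises was found in all 22 other fits. For falls it turned without Chiifu dark replicate 2, to 754 genes in LP08 and 807 in Chiifu. Over all 20710 genes, called or not, 56.7% had a larger response in LP08, and the share was 53.6% to 58.8% over the 22 other fits. The median size of the response was 0.878 in LP08 and 0.779 in Chiifu (log2 fold change). Across the 20710 genes, which are not independent replicates, responses in LP08 and Chiifu had a Pearson correlation of 0.79 and a Spearman correlation of 0.778, and 80.9% had the same sign. None of these counts and shares was taken over all features, so they are not read as particular to these genes.

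Where the interaction is read as a difference between lines, the lines differed more often in the dark than in light. A difference of LP08 and Chiifu was called in the dark alone for 2774 of the 6452 genes and in light alone for 1577 (1008 without Chiifu light replicate 2). Here too, alone means only that the other treatment did not pass the test. Both treatments showed a line difference of the same sign for 1031 genes, of which 719 differed more in the dark and 312 more in light. These became 418 to 466 without LP08 light replicate 1 or 2 or any 1 Chiifu light library, and 197 to 206 without LP08 dark replicate 2 or 3 or Chiifu light replicate 3. For 845 genes the order of the lines turned over, with LP08 above Chiifu in light and below it in the dark for 485, and the reverse for 360. The 845 became 543 and 554 without Chiifu light replicate 2 and 3. Over all 20710 genes, the line difference was larger in the dark for 56.5%, with a median size of 0.391 in light and 0.477 in the dark (log2 fold change, LP08 over Chiifu). In light 8696 genes (42.0%) differed between lines, beside 46.4% of all features, and in the dark 10640 (51.4%), beside 53.3%. The dark alone held more genes than light alone in each of the 22 other fits, and the size of this excess was not tested. Line differences were more frequent in the dark over all features too. The classes were not counted over all features, so the excess is not read as particular to these genes.

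**Figure D3:**
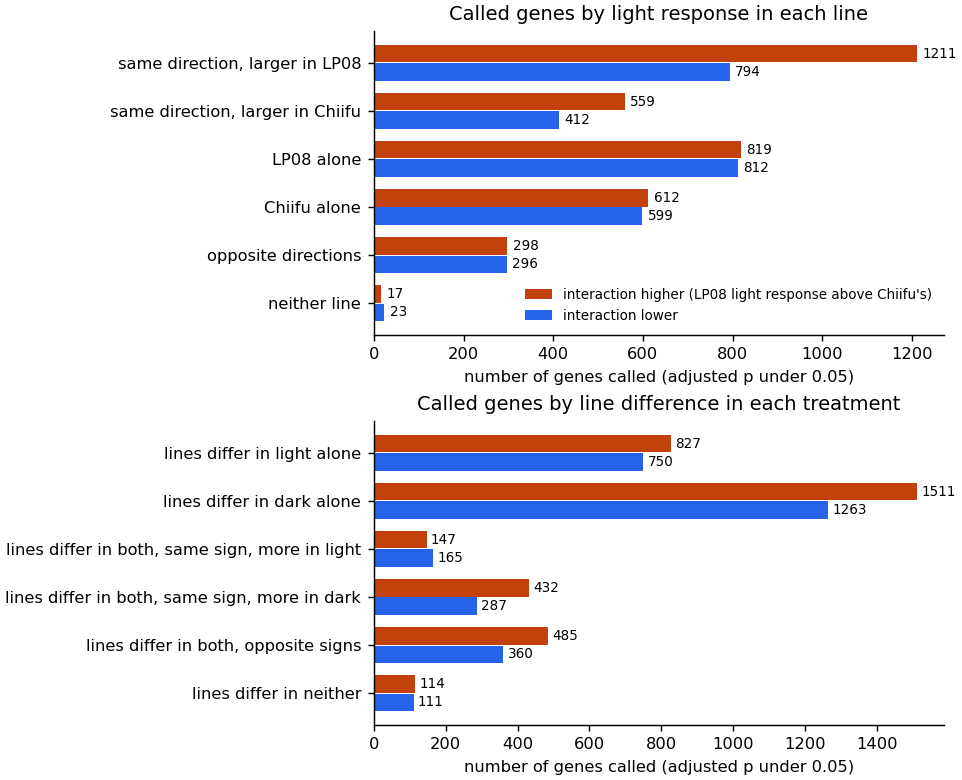
Number of called genes in each class, with higher interactions above lower ones: top, by the light response in each line; bottom, by the LP08 to Chiifu difference in each treatment. The longest bars are those of genes that rose more in LP08 (1211) and of genes whose lines differ in the dark alone (1511 higher, 1263 lower).

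Genes with a single group apart were counted as well. They had 3 groups within 1.5-fold of each other and the fourth at least 2-fold outside, and there were 763 of them. LP08 dark was the group apart for 328 of them, being high in 152 and low in 176. Chiifu dark was apart for 190 (81 high, 109 low), LP08 light for 124 (46 high, 78 low) and Chiifu light for 121 (73 high, 48 low). The group apart had a median of 2.60 to 2.81 times the geometric mean of the other groups where it was high, and 0.353 to 0.370 times where it was low. The interaction was called for 620 of the 763 genes, which their choice by size favours. Such patterns were not counted over all features, so they are not read as particular to the 20710 genes.

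**Figure D4:**
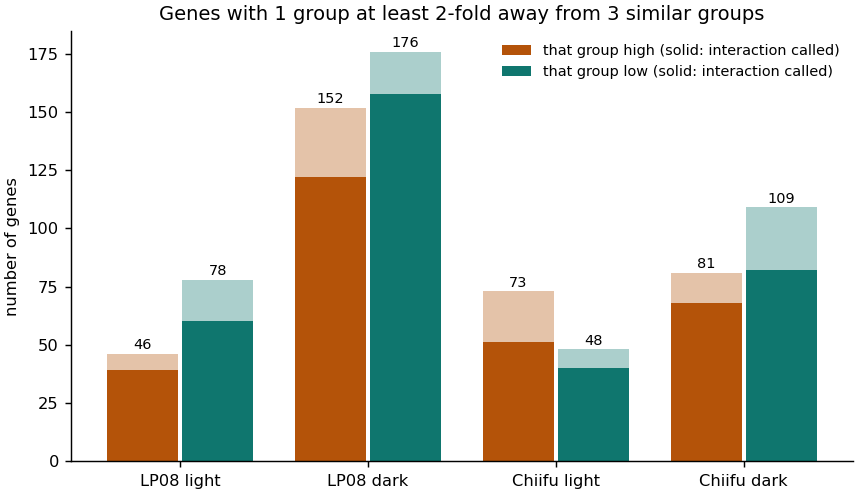
Number of genes with 3 groups within 1.5-fold and the named group at least 2-fold above (brown) or below (green) them; the solid part of a bar is the number with a called interaction. LP08 dark has the longest bars, with 152 genes high and 176 low.

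Called genes were found at every level of expression. The share called was 17.4% of 1054 genes with a mean under 3 CPM, 28.2% of 5567 at 3 to 10 CPM, 33.3% of 7184 at 10 to 30 CPM, 32.8% of 5201 at 30 to 100 CPM and 35.3% of 1704 at 100 CPM or more. The median standard error was 0.361 in the lowest class and 0.210 to 0.284 in the others. By at least 2-fold the shares were 14.5%, 19.1%, 17.1%, 16.0% and 20.5%, in the same order. In the most abundant class, 202 genes were higher and 148 lower by at least 2-fold, whereas at 3 to 10 CPM 461 were higher and 605 lower.

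The sign of the interaction held for any choice of 1 library from each group in 3664 genes with a higher and 3186 with a lower interaction (17.7% and 15.4%, beside 16.9% and 17.4% of all features). Of the 6452 called genes, 5901 were among them. Both measures use the same libraries, which favours this overlap, and it was not counted over all features. In counts, genes called higher took 29.5 ± 1.12% of all reads in LP08 light and 13.3 ± 1.39% in LP08 dark, and 24.4 ± 1.59% in Chiifu light and 21.6 ± 1.16% in Chiifu dark (SD, n = 3 each). Genes called lower took 9.16 ± 0.64% in LP08 light and 19.2 ± 1.04% in LP08 dark, and 12.4 ± 0.98% in Chiifu light and 10.06 ± 0.70% in Chiifu dark. Both sets were chosen from these libraries, so the shares carry no test.

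The genes described next were taken from 2565 called genes with an interaction of at least 2-fold, at least 10 CPM in their highest group and a call of the same sign in each of 12 fits without 1 library. That they hold without a library is thus part of their choice. Levels are CPM of the TMM-scaled library total, given for replicates 1 to 3.

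Among these genes, Bra034519 had the most positive interaction. Its level was 1876, 2233 and 2474 CPM in LP08 light and 2.98, 4.004 and 5.92 CPM in LP08 dark, and 37.9, 23.7 and 29.4 CPM in Chiifu light and 1.19, 4.74 and 4.56 CPM in Chiifu dark. The dark groups overlapped, and in light every LP08 library was far above every Chiifu library. Light raised it in both lines, with a log2 fold change of 8.99 in LP08 and 3.12 in Chiifu, and the interaction was 5.88 (SE 0.62, edgeR adjusted p = 7.96e-05). It was also the gene with the largest excess of a rise in LP08 over one in Chiifu. In the dark the difference between the lines did not pass the test (log2 0.30, adjusted p = 0.572).

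Bra031132 followed, and responded in LP08 alone. Its level was 107, 109.9 and 115 CPM in LP08 light and 5.11, 2.47 and 2.44 CPM in LP08 dark, and 20.3, 13.6 and 16.1 CPM in Chiifu light and 24.1, 18.2 and 14.6 CPM in Chiifu dark. The Chiifu groups overlapped and lay between the LP08 groups, so that the order of the lines turned over. The log2 line difference, LP08 over Chiifu, was 2.73 in light and -2.51 in the dark (edgeR adjusted p = 9.39e-06 and 1.75e-05). The light response was 5.05 in LP08 (adjusted p = 5.7e-08) and did not pass the test in Chiifu (-0.19, adjusted p = 0.549). The interaction was 5.24 (SE 0.40, adjusted p = 1.14e-05).

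Bra001843 had the most negative interaction and was the most abundant of these genes with a lower one. Its level was 1.33, 1.61 and 1.52 CPM in LP08 light and 16217, 15951 and 22145 CPM in LP08 dark, and 35.95, 45.6 and 24.8 CPM in Chiifu light and 1215, 1159.6 and 716 CPM in Chiifu dark. Light lowered it in both lines and more in LP08, and the line with more of it in the dark had less of it in light. The interaction was -8.71 (SE 0.43, edgeR adjusted p = 7.94e-07), and it had the largest excess of a fall in LP08 over one in Chiifu.

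Bra030182 had the second most negative interaction, through 1 low group. It was at 2633, 2793 and 3369.5 CPM in LP08 light and 4763, 3511 and 3908 CPM in LP08 dark, and at 2053, 1759 and 1988 CPM in Chiifu light and 11.8, 15.2 and 17.4 CPM in Chiifu dark. Chiifu dark thus stood apart from the other 3 groups, which lay between 1759 and 4763 CPM. The light response was -0.47 in LP08 (adjusted p = 0.0408) and 7.03 in Chiifu, and the interaction -7.50 (SE 0.29, edgeR adjusted p = 3.08e-07). Bra010807, the next most abundant gene with a lower interaction, was also lowest in Chiifu dark. It was at 2585, 2676 and 3135 CPM in LP08 light and 7470.4, 5507 and 5777 CPM in LP08 dark, and at 1359, 1171 and 1204 CPM in Chiifu light and 209.7, 131 and 70.1 CPM in Chiifu dark. Every group was separate from the others, with Chiifu dark the lowest and LP08 dark the highest. Light lowered it in LP08 (log2 fold change -1.16, edgeR adjusted p = 0.00517) and raised it in Chiifu (3.18, adjusted p = 4.39e-06), with an interaction of -4.34 (SE 0.45).

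**Figure D5:**
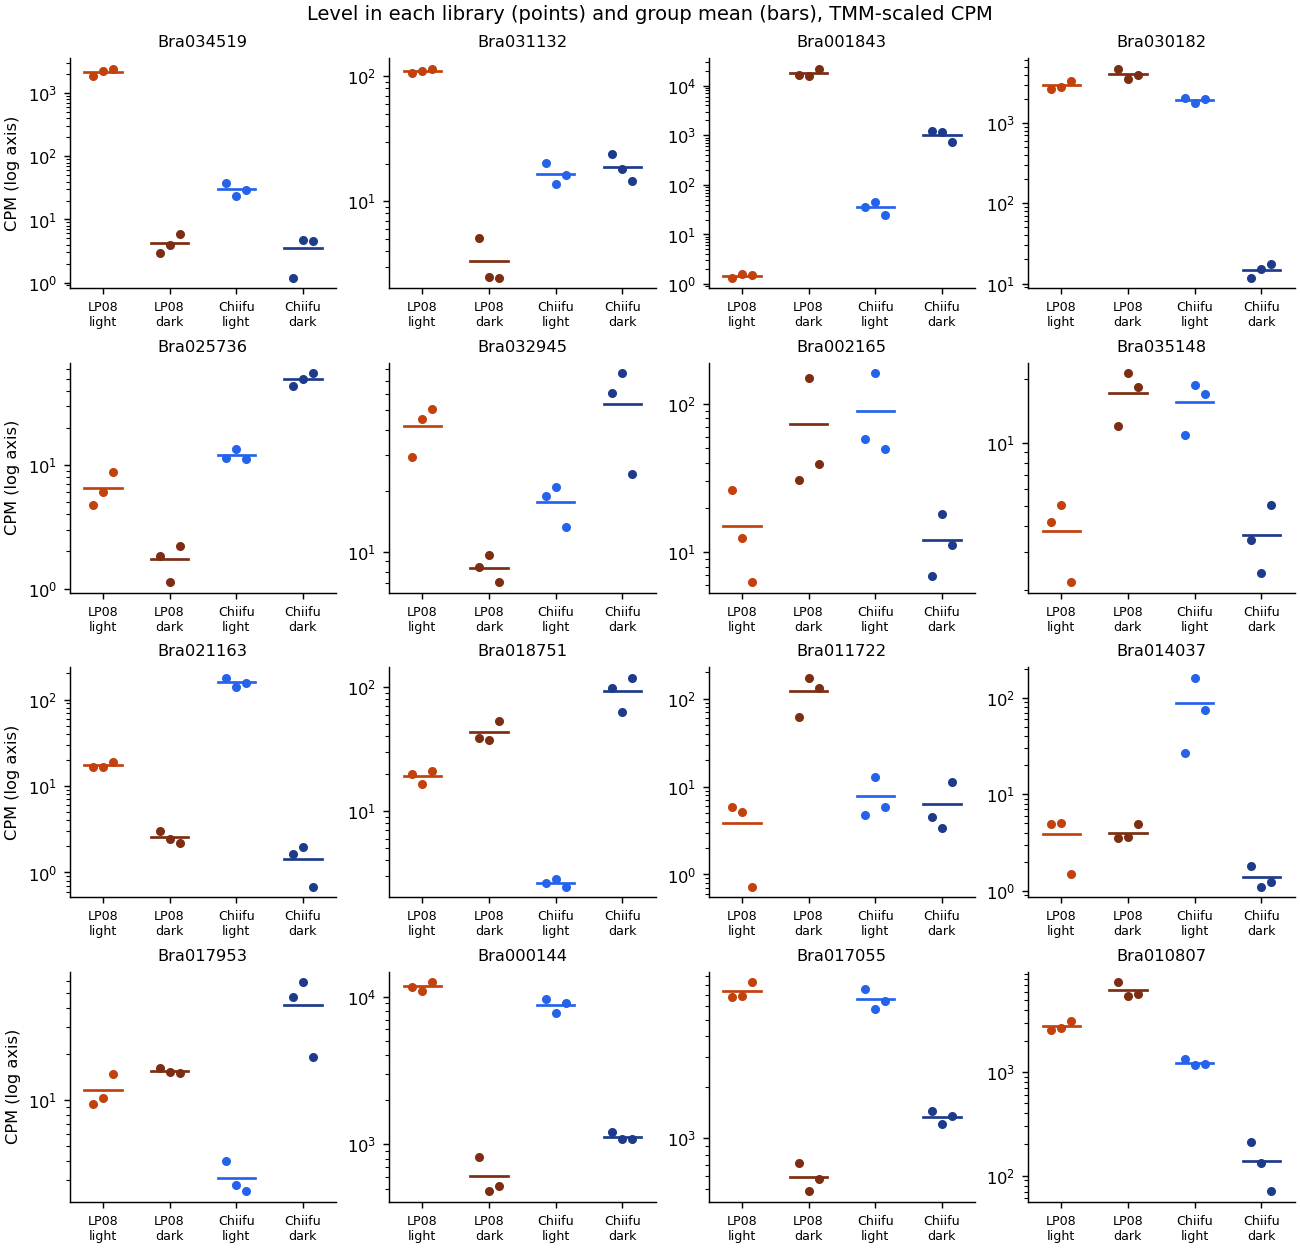
Level of the 16 genes given by ID in each of the 12 libraries (points, TMM-scaled CPM on a log axis) with the mean of each group (bar). Bra030182 is low in Chiifu dark alone, Bra011722 is high in LP08 dark alone, and Bra000144 and Bra017055 are high in both light groups.

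Opposite responses were the rarest of the main classes and, where both were strong, mostly ran one way. Of the 594 genes, 298 rose in LP08 and fell in Chiifu, and 296 did the reverse. Of the 88 genes in which both responses were at least 2-fold, 17 rose in LP08 and fell in Chiifu, and 71 fell in LP08 and rose in Chiifu. This split was counted after seeing the data, and not over all features. The second number was at least 2 times the first in each of the 22 other fits, and the share was not tested. For 159 of the 594 genes the order of the lines turned over as well.

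Bra025736 and Bra032945 had the largest value of the smaller of their opposite responses among genes that rose in LP08 and fell in Chiifu. Bra025736 was at 4.78, 6.06 and 8.76 CPM in LP08 light and 1.83, 1.12 and 2.22 CPM in LP08 dark, and at 11.5, 13.4 and 11.2 CPM in Chiifu light and 43.8, 49.9 and 55.7 CPM in Chiifu dark. LP08 was below Chiifu in both treatments, with the widest gap in the dark. Its light response was 1.93 in LP08 and -2.05 in Chiifu (log2 fold change, interaction 3.98, SE 0.36, edgeR adjusted p = 2.85e-05). Bra032945 was at 29.5, 45.4 and 50.8 CPM in LP08 light and 8.402, 9.63 and 7.08 CPM in LP08 dark, and at 18.9, 21.01 and 13.3 CPM in Chiifu light and 60.9, 76.3 and 24.1 CPM in Chiifu dark. Chiifu dark replicate 3 was well below the other libraries of its group but above every Chiifu light library. The response was 2.32 in LP08 and -1.60 in Chiifu (interaction 3.92, SE 0.51, adjusted p = 0.00032).

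By the same measure, Bra002165 and Bra035148 came first among genes that did the reverse. Bra002165 was at 26.2, 12.4 and 6.26 CPM in LP08 light and 30.6, 149 and 39.5 CPM in LP08 dark, and at 58.1, 161 and 49.9 CPM in Chiifu light and 6.901, 18.2 and 11.2 CPM in Chiifu dark. The light response was -2.29 in LP08 (edgeR adjusted p = 0.0181) and 2.89 in Chiifu (edgeR adjusted p = 0.00611). Its replicates spread widely, and the highest LP08 light library (26.2 CPM) was close to the lowest LP08 dark library (30.6 CPM). The interaction was -4.12 without LP08 dark replicate 2, against -5.17 with all libraries (SE 1.07, edgeR adjusted p = 0.00521). Bra035148 was at 4.203, 5.06 and 2.16 CPM in LP08 light and 12.05, 21.4 and 18.4 CPM in LP08 dark, and at 10.8, 18.7 and 17.1 CPM in Chiifu light and 3.43, 2.39 and 5.06 CPM in Chiifu dark. LP08 dark and Chiifu light overlapped at the high level, and LP08 light and Chiifu dark at the low one. The response was -2.18 in LP08 and 2.10 in Chiifu (interaction -4.28, SE 0.51, adjusted p = 0.000158).

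Among genes that moved the same way in both lines but more in Chiifu, Bra021163 had the largest excess rise. It was at 16.8, 16.6 and 18.7 CPM in LP08 light and 2.98, 2.46 and 2.22 CPM in LP08 dark, and at 179, 141 and 155 CPM in Chiifu light and 1.61, 1.98 and 0.68 CPM in Chiifu dark. Every Chiifu light library was above every LP08 light library, while the dark levels of LP08 were slightly above those of Chiifu. The rise was 2.77 in LP08 and 6.78 in Chiifu (interaction -4.01, SE 0.38, edgeR adjusted p = 3.98e-05). Bra018751 had the largest excess fall. It was at 20.1, 16.7 and 21.2 CPM in LP08 light and 39.2, 37.7 and 53.1 CPM in LP08 dark, and at 2.65, 2.83 and 2.45 CPM in Chiifu light and 97.9, 63.3 and 119 CPM in Chiifu dark. The Chiifu groups were the outer ones in both directions, and the log2 fold change was -1.17 in LP08 and -5.14 in Chiifu (interaction 3.98, SE 0.31, adjusted p = 1.24e-05).

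Bra031132 had the largest interaction among genes that rose in LP08 with little change in Chiifu, and 3 genes had the largest for the other directions and lines. Bra011722 fell in LP08 alone, with 5.82, 5.11 and 0.721 CPM in LP08 light and 61.7, 175 and 131 CPM in LP08 dark, and 4.695, 12.8 and 5.89 CPM in Chiifu light and 4.48, 3.36 and 11.2 CPM in Chiifu dark. LP08 dark was above every other library, and LP08 light replicate 3 was the lowest of all. The response was -4.98 in LP08 and 0.31 in Chiifu, where it did not pass the test (adjusted p = 0.715). The interaction was -5.29 (SE 1.04, edgeR adjusted p = 0.00411). Bra014037 rose in Chiifu alone, with 4.96, 5.11 and 1.498 CPM in LP08 light and 3.55, 3.61 and 4.904 CPM in LP08 dark, and 26.8, 161 and 74.7 CPM in Chiifu light and 1.82, 1.102 and 1.24 CPM in Chiifu dark. Its Chiifu light libraries differed widely among themselves but were all above the other groups. The response was 5.98 in Chiifu and -0.06 in LP08, where it did not pass the test (adjusted p = 0.949). The interaction was -6.04 (SE 0.89, adjusted p = 0.000844). Bra017953 fell in Chiifu alone, with 9.46, 10.4 and 14.9 CPM in LP08 light and 16.2, 15.3 and 15.1 CPM in LP08 dark, and 4.01, 2.81 and 2.53 CPM in Chiifu light and 46.8, 58.9 and 19.2 CPM in Chiifu dark. The LP08 groups lay between those of Chiifu. The response was -3.74 in Chiifu and -0.42 in LP08, where it did not pass the test (adjusted p = 0.279), and the interaction was 3.32 (SE 0.48, adjusted p = 0.000604).

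The most abundant genes with a higher interaction of at least 2-fold were strongly raised by light in both lines. Bra000144 was at 11657, 10976 and 12540.3 CPM in LP08 light and 827, 479 and 521 CPM in LP08 dark, and at 9618, 7779.9 and 9045 CPM in Chiifu light and 1207, 1079 and 1084 CPM in Chiifu dark. Its response was 4.27 in LP08 and 2.97 in Chiifu (log2 fold change, interaction 1.29, SE 0.30, edgeR adjusted p = 0.00752). Every LP08 dark library was below every Chiifu dark library, and the line difference was called in the dark (-0.88, adjusted p = 0.00401) and not in light (0.41, adjusted p = 0.129). Bra017055 was likewise raised by light in both lines. It was at 6838, 6920.2 and 8333 CPM in LP08 light and 711, 486 and 573 CPM in LP08 dark, and at 7589.9, 5808 and 6497 CPM in Chiifu light and 1443, 1221 and 1359 CPM in Chiifu dark. The light groups overlapped and the dark groups did not, and the interaction was 1.33 (SE 0.26, edgeR adjusted p = 0.00331). Its line difference too was called in the dark (-1.18, adjusted p = 0.000237) and not in light (0.15, adjusted p = 0.53).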

How the data were processed

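TruSeq Stranded mRNA libraries were made from DNase-treated RNA of whole seedlings, per the labels' protocols. The deposited tables hold raw counts, 1 whole number per feature and library, which the authors did not normalize. FastQC, TopHat2, featureCounts and edgeR are named in the submitters' processing notes, with no version or role. The sources used here give no genome build, annotation or strand setting, so genes that share reads with a copy or an antisense gene could not be told apart.

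The counts went through edgeR 4.0.16 in R 4.3.3: filterByExpr by group (minimum count 10, minimum total 15, 31239 features kept), TMM scaling, and the robust quasi-likelihood F-test on group means of the 12 libraries (8 residual degrees of freedom). P-values were adjusted by Benjamini-Hochberg over all 31239 features, with calls at an adjusted p under 0.05. Standard errors are those implied by the F statistic. The interaction, the light response in each line and the line difference in each treatment came from this fit. Choices of libraries were compared on log2(CPM + 0.1). The procedure was tested on simulated counts without interactions, to which interactions of log2 size 1 and 2 were added in 100 genes each. It recovered 16 of the 100 at size 1 and 86 of the 100 at size 2, and called 2 of 31039 unchanged genes. Far fewer genes had an interaction there than were called in these data, so these shares need not hold here. Alternatives used DESeq2 1.42.0 and limma 3.58.1.

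The 20710 genes and the rules were chosen with earlier results of these data known. Genes given by ID were, among those described in the report, the 2 most positive and 2 most negative interactions, the 2 of each sign with the strongest opposite responses, the largest shared and 1-line responses of each direction, and the 2 of each sign with the highest mean level. For a 1-line response the other line was not called and under 0.5 on the log2 scale. Whether replicates are separate plants is not stated in the labels, so the p-values reflect only the spread among these libraries, part of which may be technical. Every pair of replicates differed by more than counting noise (lowest chi-square over its degrees of freedom 13.7). Libraries that share a replicate number deviated together above r = 0.1 in 9 of 18 pairs (r from -0.465 to 0.542), so the numbers were not taken as pairs. Libraries of different groups and different numbers had r from -0.528 to 0.578, and the source of these shared deviations was not tested.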

Additional observations from a re-analysis of the deposited data

Results flagged for a closer look

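The test of the difference between the lines' light responses called 6452 genes, and the genes given by ID are among them by their choice. Their log2 interactions, LP08 minus Chiifu, were positive for Bra034519 (5.88), Bra031132 (5.24), Bra018751 (3.98), Bra025736 (3.98), Bra032945 (3.92), Bra017953 (3.32), Bra017055 (1.33) and Bra000144 (1.29). They were negative for Bra001843 (-8.71), Bra030182 (-7.50), Bra014037 (-6.04), Bra011722 (-5.29), Bra002165 (-5.17), Bra010807 (-4.34), Bra035148 (-4.28) and Bra021163 (-4.01). The groups hold 3 libraries, so single libraries were not tested for standing apart.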

How the results depend on the processing

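All 16 genes given by ID kept their sign and call in 22 other fits. For the 12 fits without 1 library this was a condition of their choice, so only the 10 other alternatives bear on it. The called genes numbered 4713 to 7863 without 1 library, and 4281 of 6452 (66.4%) kept call and sign in all 12 such fits. Fits without 1 library gave 12 to 54 genes called in neither line, 272 to 561 rising more in Chiifu, 371 to 807 falling more in Chiifu, 29 to 72 lower by at least 16-fold, 1008 to 2093 whose lines differ in light alone, 197 to 431 in both and more in light, 418 to 1017 in both and more in dark, 543 to 1155 with opposite signs, and 111 to 204 in neither treatment. The lowest values came without Chiifu light replicate 2 or 3, LP08 light replicate 2 or LP08 dark replicate 2 or 3, and the highest mostly without Chiifu dark replicate 3. Among lower genes of at least 16-fold there were 32 without LP08 light replicate 3 or Chiifu light replicate 2, and 90 with limma-voom. Genes called in neither line numbered 65 with the DESeq2 test and 20 with the replicate block. With that block 6132 genes were called, 5876 of them also without it. Replicate numbers were not taken as pairs, and 4 of 12 libraries deviated most like their own number. With Chiifu dark replicate 3 and LP08 light replicate 3 left out, an alternative added after seeing the data, 144 genes had lines that differ in neither treatment. Tested against a difference of 2-fold, 461 of the 20710 genes were higher and 499 lower, again not counted over all features. With at least 5 CPM in all groups, 4177 of 13757 genes were called, 1757 of them lower, and at 2-fold or more 1008 had a higher and 898 a lower interaction. With the other groups within 2-fold, the group apart was high for 99 (LP08 light), 327 (LP08 dark), 150 (Chiifu light) and 178 genes (Chiifu dark), and low for 204, 369, 108 and 245. At least 3-fold outside, it was high for 9, 34, 20 and 15 genes and low for 17, 36, 9 and 29, in the same order. The median interaction of the 20710 genes was 0.03 with TMM, -0.06 with library totals and 0.11 with DESeq2 size factors. Of the genes called in these 2 fits, 94.7% and 91.3% were called with TMM. The cause of these shifts was not tested. Genes under 3 CPM had the highest median standard error (0.361) and the lowest share called (17.4%).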

Other observations

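Interactions on a log2 scale need not hold in CPM, which was checked as an alternative added after seeing the data. For 257 of the 6452 called genes, or 3.98%, the difference of the light minus dark differences in mean CPM had the opposite sign. These were 155 of the 2005 genes that moved the same way with a larger fold in LP08 (7.73%) and 94 of the 971 with a larger fold in Chiifu (9.68%). Among genes called in 1 line alone there were 5 of 1631 in LP08 and 3 of 1211 in Chiifu. Genes with opposite responses cannot change sign in this way, and 0 of 594 did. By at least 2-fold, 136 of 3631 genes changed sign.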
